A study of Arabidopsis thaliana with 25 samples.

Results

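NSUN5 (AT5G26180) is the *Arabidopsis thaliana* relative of the yeast rRNA cytosine methyltransferase RCM1, and its loss was followed here in the mutant lines nsun5-1 and nsun5-2 against wild type. The members were chosen by genotype. They are the 3 wild type, 3 nsun5-1 and 2 nsun5-2 libraries of experiment 1, which make 8 of the 25 libraries in the series, and all 7 rRNA sites with a deposited level were followed in them. All 8 libraries were made from bisulfite-treated total RNA of whole seedlings raised on soil and collected 10 days after germination. Both mutants carry a T-DNA insertion in NSUN5 and share the Columbia background with wild type. The text of the study and its list of genotyping primers attach the insertion lines to the names nsun5-1 and nsun5-2 in opposite order, so the names below are only those of the column headings, and the insertion behind each name was not settled here. NSUN5 RNA and protein were not measured in these tables, so the levels of the targeted gene cannot be used to check the labels. The comparators from the same experiment were 12 libraries of 5 mutants in the NOP2 paralogues, also grown on soil: nop2a-2 in NOP2A, nop2b-1 and nop2b-2 in NOP2B, and nop2c-1 and nop2c-2 in NOP2C. Experiment 2, on culture plates, added 1 library each of wild type and of plants mutated in genes for tRNA cytosine methyltransferases or a paralogue of one (the single mutants trm4a, trm4b-1 and trdmt1, and the combination trdmt1 trm4b).

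Cytosine-5 RNA methyltransferases of the NOP2/Sun family place a methyl group on carbon 5 of selected cytosines, most of them in rRNA and tRNA. RCM1 of *Saccharomyces cerevisiae* modifies a cytosine of 25S rRNA, in the large subunit of the ribosome, and its human relative is also called NSUN5. Yeast NOP2, from the same family, modifies another cytosine of the same molecule. In bisulfite sequencing an unmethylated cytosine is read as thymine and 5-methylcytosine (m5C) is read as cytosine. The study states that other modified cytosines can resist conversion too, and it calls its sites candidates. A site's methylation level is the percentage of mapped bases that stayed cytosine, averaged by the authors over the libraries of a genotype. The spread between libraries and the read depth at each site are unknown, so the levels have no SD and no interval. They come from whole seedlings, in which partial methylation in every cell and full methylation in a part of the cells cannot be told apart.

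The 7 sites are shown first, because the results set C2268 beside the others, first by level and then by sequence. Each line gives the site in capitals with 10 bases on each side, from the deposited reference sequence and written as DNA.
25S C2268, nuclear large subunit: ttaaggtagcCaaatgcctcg
25S C2860, nuclear large subunit: tttgatccttCgatgtcggct
16S C916, chloroplast small subunit: taattcgatgCaaagcgaaga
23S C1940, chloroplast large subunit: tataacggtcCtaaggtagcg
23S C1977, chloroplast large subunit: aagttccgacCcgcacgaaag
18S C960, mitochondrial small subunit: taattcgataCaacgcgcaaa
26S C1586, mitochondrial large subunit: aagtagcgacCtgcacgaatg
Positions are counted from the first base of each reference sequence. The mitochondrial 26S site is printed in the deposited tables with an extra 0 at the end of its position, beyond the end of the 2568-base sequence, and was read as C1586. C2268 is 1 of 823 cytosines in the 3375 bases of 25S rRNA and lies 592 bases before C2860. After conversion, each of the 7 windows occurred in only 1 place among the 10 distinct converted *Arabidopsis* rRNA sequences, so a read that spans a whole window has no second exact match in these references.

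The first question was whether 25S C2268 needs NSUN5. Methylation of C2268 was lower in both mutants than in wild type. It averaged 2% over the nsun5-1 libraries and 29.2% over the nsun5-2 libraries, against 66% for wild type. The unmethylated share of the bases read at C2268 was thus 98% in nsun5-1 and 70.8% in nsun5-2, against 34.0% in wild type. Neither mutant overlapped with the 6 other genotypes of experiment 1, which ran from 60% in nop2a-2 to 84% in nop2b-1, nor with the experiment 2 genotypes, of which trm4a was highest at 85%. The differences from wild type were -64.0 points in nsun5-1 and -36.8 points in nsun5-2.

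Among the experiment 1 genotypes not mutated in NSUN5, C2268 was the more variable of the sites in nuclear 25S rRNA. In experiment 2, with 1 library per genotype, the spreads were closer. Levels there ran from 71% to 85% at C2268 and from 74% to 85% at C2860. The 6 other genotypes of experiment 1 averaged 70.8% ± 8.32 (SD over genotype averages, n = 6) at C2268 and 82.2% ± 1.15 at C2860. Distances from the C2268 mean, in units of that SD, were -8.27 for nsun5-1 and -4.997 for nsun5-2. The mean of the nsun5 lines was 15.6%, a difference of -55.2 points, with 2 of 2 lines lower than every comparator. A two-sided exact permutation test with genotype averages as units gave p = 0.0357 at C2268, the smallest value its 28 regroupings allow, and p = 0.25 after Benjamini-Hochberg adjustment over the 7 sites. A single changed site cannot reach a lower adjusted p in this design, and without nsun5-1 or without nsun5-2 no exact p below 0.143 is possible.

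**Figure D1:**
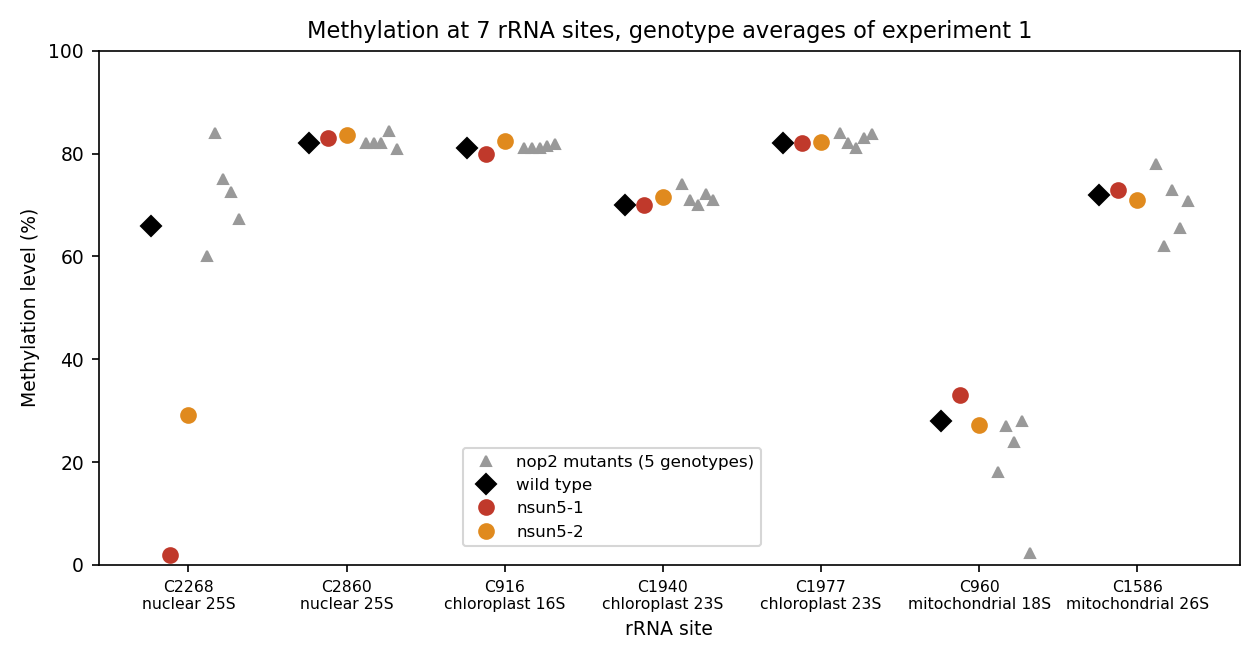
Methylation level (%, vertical axis) at the 7 rRNA sites (horizontal axis) in experiment 1. Each point is a genotype average (wild type, nsun5-1, nsun5-2 and 5 nop2 mutants, of which nop2b-2 is a single library), with no error bars because library values are unknown. At C2268 nsun5-1 sits at 2% and nsun5-2 at 29.2%, below all other genotypes, whereas at the other sites the nsun5 points lie close to wild type.

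The averages themselves limit what the single libraries can have been, if they are plain means of the libraries. At C2268, 3 nsun5-1 libraries with a mean of 2%, rounded to whole percent, cannot include a library above 7.5%. The 2 nsun5-2 libraries with a mean of 29.2% cannot include a library above 58.4%. For wild type, a mean of 66% over 3 libraries requires that at least 2 of them were above every nsun5-1 library, and at least 1 above every nsun5-2 library. The low level in nsun5-1 was therefore shared by all 3 of its libraries. Whether the nsun5-2 libraries were alike, and whether they overlapped with single wild type libraries, is not fixed by the averages.

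The mutants differed from each other at C2268 by 27.2 points, with nsun5-2 at 44.3% and nsun5-1 at 3.03% of the wild type level. At the same site the gap was 16.7 points between the nop2b alleles and 2.48 points between the nop2c alleles. At the other 6 sites the nsun5 lines were 0.339 to 5.70 points apart, and the widest of these gaps was at mitochondrial C960. The difference between the alleles was not tested, because each has 1 value. The residual 2% in nsun5-1 could not be separated from unconverted cytosine, since the values of the spiked control transcript were not used here.

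C2860, the other m5C site of nuclear 25S rRNA, served as a comparison within the same molecule. Yeast NOP2 modifies the equivalent cytosine. C2860 was methylated at 83% in nsun5-1 and 83.7% in nsun5-2, against 82% in wild type. Both mutants were slightly above wild type, by 1 and 1.66 points, and inside the range of the other genotypes of experiment 1, which was 81.0% to 84.4%. The mean difference of 1.10 points between the nsun5 lines and those 6 genotypes had p = 0.25 in the exact permutation test (adjusted p = 0.75). Without nop2c-2, which had the highest level at 84.4%, both nsun5 lines were above all others and the exact p was 0.0476, with an adjusted p of 0.167.

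The ratio of the level at C2268 to that at C2860 shows the same contrast without reference to wild type. As C2860 varied little in experiment 1, the ratio there mostly restates the C2268 level and is not a separate result. The ratio was 0.0241 in nsun5-1 and 0.349 in nsun5-2, against 0.805 in wild type. In the 5 nop2 mutants the ratio was between 0.732 and 1.02, and in the 5 genotypes of experiment 2 it was between 0.835 and 1.08. Both nsun5 lines had a lower ratio than each of the other 11 genotypes.

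**Figure D2:**
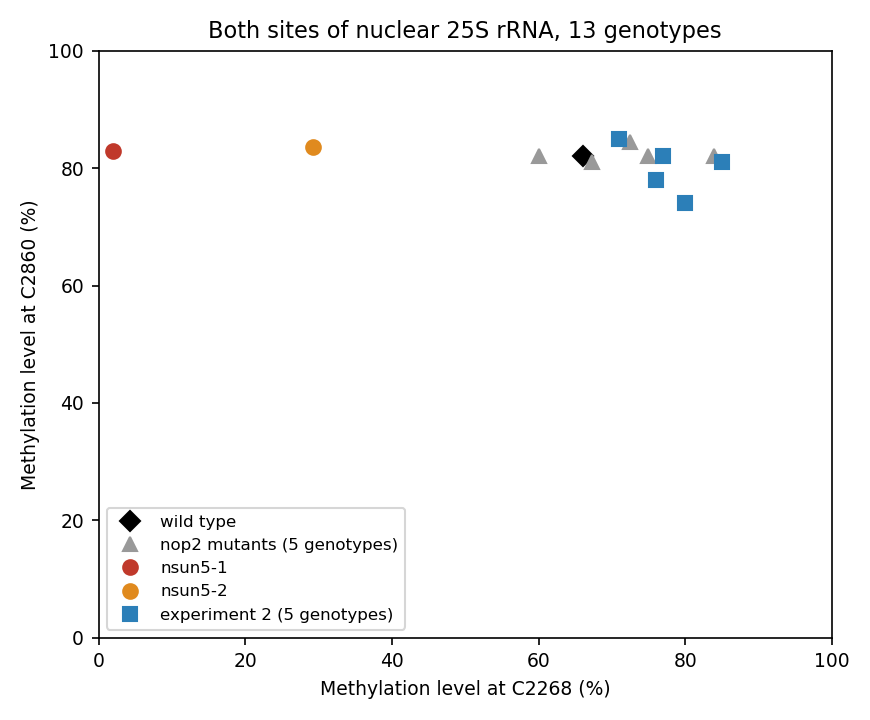
Methylation level at C2860 (%, vertical axis) against that at C2268 (%, horizontal axis), both in nuclear 25S rRNA, with 1 point for each of 13 genotypes. The nsun5 points lie far to the left, at 2% and 29.2% on the horizontal axis, but at 83% and 83.7% on the vertical axis, among the others.

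The next question was whether any other site changed with the loss of NSUN5. A limit of 10 percentage points was taken from the wild types of experiments 1 and 2, which were at most that far apart at any site. That widest gap was at C2268 itself, 66% against 76% in the single library of experiment 2. At every other site the wild types were closer, so the limit is a lenient one there. With it, 1 of 7 sites was lower than wild type in nsun5-1 (14.3%) and 1 of 7 in nsun5-2 (14.3%), and this was C2268 in both. No site was higher by more than 10 points. Among the 5 nop2 mutants, 2 of 35 pairs of a mutant and a site were past the limit in either direction (5.71%). The 1 pair that was lower (2.86%) was the single library of nop2b-2 at C960. The 1 that was higher (2.86%) was nop2b-1 at C2268, by 18 points. Only differences of more than 10 points were counted, which left out ties. In nop2a-2 the C960 average was 18% against 28% in wild type, exactly at the limit. The C1586 average of nop2b-1, 62% against 72%, was a tie as well. These averages are whole percent, so the nop2 count depends on rounding and on how ties are treated. At the 6 sites other than C2268, the mean absolute difference from wild type was 1.33 points in nsun5-1 and 1.11 points in nsun5-2, against 1.00 to 5.27 points in the nop2 mutants. None of these 6 sites had p under 0.05 in the exact permutation test, and the lowest was the p of 0.25 at C2860. With 28 regroupings that test gives no p below 0.0357, and opposite shifts of the nsun5 lines cancel in their mean. It therefore cannot show that these sites were unchanged.

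**Figure D3:**
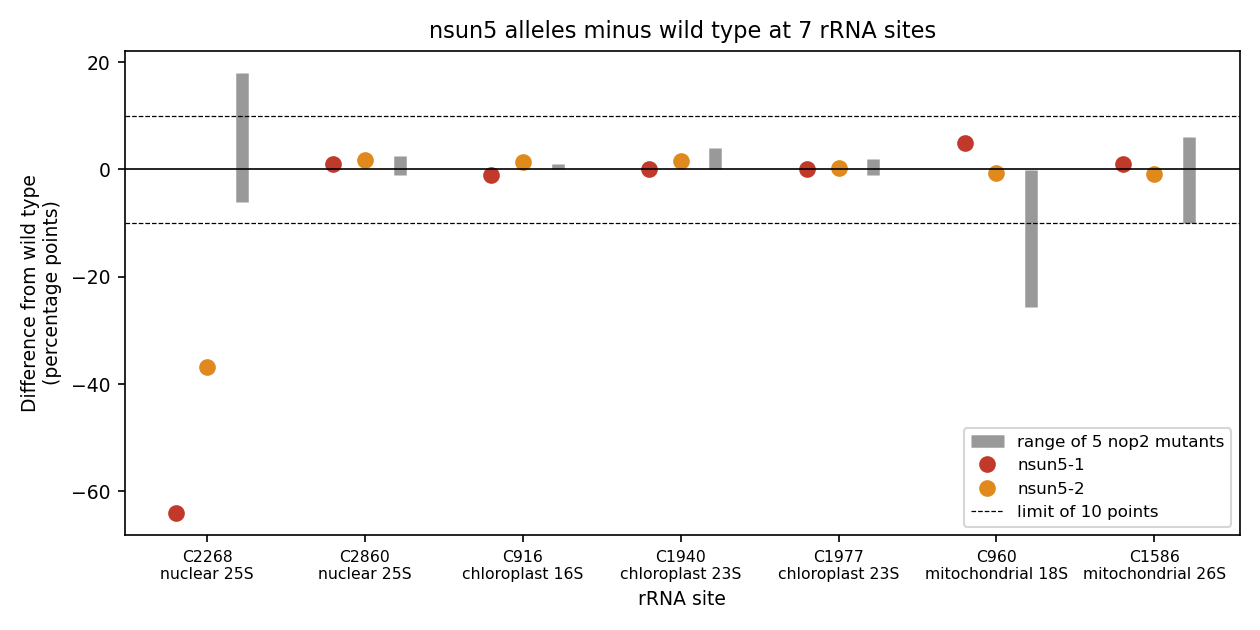
Difference from wild type (percentage points, vertical axis) at the 7 rRNA sites (horizontal axis) for nsun5-1 and nsun5-2, with grey bars for the range of the 5 nop2 mutants and dashed lines at 10 points. Only C2268 is past the dashed lines in the nsun5 lines, at -64.0 and -36.8 points.

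The chloroplast sites were within 1.59 points of wild type in both nsun5 lines. At 23S C1940 nsun5-1 had the same 70% as wild type and nsun5-2 had 71.6%. At 23S C1977 nsun5-1 again equalled wild type, at 82%, and nsun5-2 had 82.3%. These values lay inside the ranges of the other genotypes of experiment 1, 70% to 74% at C1940 and 81% to 84% at C1977.

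16S C916 had the tightest values of the 7 sites, at 81.3% ± 0.404 (SD over genotype averages, n = 6) in the genotypes of experiment 1 other than nsun5. The nsun5 lines fell just outside the range of those genotypes on opposite sides, with 80% in nsun5-1 and 82.4% in nsun5-2 against 81% in wild type. Over the 11 genotypes of both experiments other than nsun5, the range was 76% to 81.9%, which includes nsun5-1 but not nsun5-2. In units of the SD in experiment 1 they were -3.09 and 2.86 from the mean, and the exact permutation test of their mean gave p = 1. Several of these averages are whole percent, so a gap of 1 point is close to the rounding.

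At both mitochondrial sites the nsun5 lines lay on opposite sides of wild type. At 18S C960, the site with the lowest level in wild type, nsun5-1 had 33% and nsun5-2 had 27.3%, against 28% in wild type. The 33% in nsun5-1 was above each of the 11 genotypes other than nsun5, which reached at most 32%, in trdmt1 trm4b. On average the nsun5 lines were 8.95 points above the 6 other genotypes, with p = 0.321 in the exact permutation test. That comparison rests in part on the single library of nop2b-2, with 2.33%, and without it the difference was 5.17 points. Against the mean of the 5 nop2 mutants, in place of wild type, nsun5-1 was 13.2 points higher at C960 and the number of its sites past the limit became 2. Without nop2b-2, an alternative chosen after seeing the data, nsun5-1 was 8.78 points above the mean of the 4 remaining nop2 mutants and C2268 was again its 1 site past the limit.

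At 26S C1586 the nsun5-1 average was 73% and the nsun5-2 average 71.0%, on either side of the 72% in wild type. The nop2 mutants spread far wider there, from 62% to 78%. The nop2 mutant nearest to wild type was nop2c-1, at the same 73% as nsun5-1. Over the 5 organelle sites together, nsun5-1 had a mean level of 67.6% and nsun5-2 of 66.9%, against 66.6% in wild type.

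The sequence at C2268 was then set beside the organelle large subunit rRNAs, which share ancestry with nuclear 25S rRNA. In a global alignment 73.2% of aligned bases were identical between nuclear 25S and chloroplast 23S rRNA, and 74.3% between nuclear 25S and mitochondrial 26S rRNA. The stretch that leads into C2268 is part of a block held by all 3 molecules. It is shown here with the aligned base, and any listed site in it, in capitals.
nuclear 25S, positions 2256 to 2278: tcttaaggtagcCaaatgcctcg
chloroplast 23S, positions 1938 to 1960: tcCtaaggtagcGaaattccttg
mitochondrial 26S, positions 1547 to 1569: tcctaaggtagcGaaattccttg
The 9 bases TAAGGTAGC directly before the aligned base occur once in each of these 3 rRNAs and in none of the 7 other distinct *Arabidopsis* rRNA entries, read on the rRNA strand. This motif was picked from the alignment after it was seen. It starts at 3 of 14413 windows of that length, or 0.0208%. The next base is the cytosine C2268 in nuclear 25S rRNA and a guanine in chloroplast 23S rRNA (position 1950) and in mitochondrial 26S rRNA (position 1559). The organelle molecules thus have no cytosine at the position that matches C2268.

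The chloroplast block nevertheless holds a site of its own. C1940 lies 10 bases before the position aligned with C2268, immediately before TAAGGTAGC, where nuclear 25S rRNA has a thymine at position 2258. Its level of 70% in nsun5-1 and 71.6% in nsun5-2 was thus measured in the same conserved block in which nuclear C2268 was at 2% and 29.2%. The mitochondrial block has a cytosine (position 1549) aligned with C1940. It has no level among the sites followed here. In its comparison of plant species, however, the study names C1549 of mitochondrial 26S rRNA among the conserved m5C sites. The level at position 1549 was not analysed here.

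Other sites matched each other across the organelles. C1977 of chloroplast 23S rRNA aligned with C1586 of mitochondrial 26S rRNA, with 17 of 21 window bases identical. C916 of chloroplast 16S rRNA aligned with C960 of mitochondrial 18S rRNA, also with 17 of 21 identical. Neither pair had a listed site at the aligned position in nuclear rRNA. Within these pairs the nsun5 lines differed from wild type by at most 1.41 points in the chloroplast and at most 5 points in the mitochondrial member.

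At equal distance from the site, C2268 had 8 of 20 flanking bases in common with C1940, 6 with C916, 6 with C960, 5 with C2860, 3 with C1586 and 2 with C1977. Across 3341 other cytosines of the *Arabidopsis* rRNAs the median was 5, and 10.7% had 8 or more in common with C2268. With these flanks of 10 bases on each side, C2860, on the same molecule, was at the median, and C1940, C916 and C960 were above it. Of these 3, C1940 alone was above the median with 5 and with 20 bases on each side as well.

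Bisulfite treatment turns the C2268 window into sequences that differ at the site alone, given here with the site in capitals.
methylated at C2268: ttaaggtagtCaaatgttttg
unmethylated at C2268: ttaaggtagtTaaatgttttg
The study designed a primer that ends on the base before the site, positions 2236 to 2267 of 25S rRNA, for a restriction assay of this difference. It is shown beside the fully converted template, with the base that differs in capitals.
primer: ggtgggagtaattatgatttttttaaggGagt
converted template: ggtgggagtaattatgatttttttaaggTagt
Counted from the 5′ end of the primer, the difference is T29G (template base first), at the base 4 from its 3′ end. With cytosine kept at C2268 the predicted product of 155 bases holds 1 match to GANTC, the pattern cut by HinfI, and the fragments would be 29 and 126 bases long. With thymine at C2268 it holds 0 matches. This follows from the sequences alone, and no digest was analysed here.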

How the data were processed

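Seedling RNA was bisulfite converted and sequenced on an Illumina MiSeq. Per the study's methods, the authors trimmed and filtered reads and mapped them with CLC Genomics Workbench (version not given in the sources used here) to rRNA references converted in silico. The submitters' processing notes name TAIR 10. The deposited values are percent methylation, made by the authors as cytosines over cytosines plus thymines, and 5 of the 8 columns of experiment 1 hold whole percent only. Reads that keep many cytosines can be lost in such mapping. Read depth per site is unknown.

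Columns were matched to genotypes by name (oli2-2 is nop2a-2). All 7 sites are reported. Differences from wild type are in percentage points, without a test. A two-sided exact permutation test used genotype averages as units (28 regroupings) with Benjamini-Hochberg adjustment over 7 sites, and was tested on simulated data. Sequences were aligned globally with Biopython (free end gaps, scores of 2 for a match, -2 for a mismatch, -5 to open a gap and -0.5 to extend it). The comparison, the limit of 10 points and the sites were chosen with earlier results of these data known. Alternatives are given in the closing section. The planned protein comparison was not run. Computations used Python 3.11.15, NumPy 2.4.6, Biopython 1.88 and matplotlib 3.10.9.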

Additional observations from a re-analysis of the deposited data

How the results depend on the processing

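No paired analysis was possible because library values are lacking for every averaged genotype, and single replicates could not be left out either. Of 199 alternative values of 31 results, 181 counted as unchanged. They stayed within the spread of the 6 other genotypes, kept their sign on the logit scale, or kept their count or side of the threshold. Many of them could hardly have changed. A difference between genotypes keeps its sign on the logit scale by construction. The threshold was an adjusted p of 0.05, which a single changed site cannot reach in this design. The number unchanged is therefore no measure of stability. No difference past 10 points changed sign. When the 8 genotypes were left out singly, the difference of the nsun5 mean at C2268 ranged from -68.8 to -41.6 points, with exact permutation p from 0.0476 to 0.143 and adjusted p from 0.167 to 0.5. The number of the other 6 sites with an unadjusted exact p under 0.05 was 0 to 1 over the same omissions, the 1 being C2860 without nop2c-2. Against the single wild type library of experiment 2, which differs in growth medium, the C2268 differences were -74 points in nsun5-1 and -46.8 points in nsun5-2. Against the mean of the 5 nop2 mutants, nsun5-1 had 2 sites past the limit, C2268 and C960. Without nop2b-2, a single library, it had 1 (C2268), with 8.78 points at C960. This comparator was chosen after seeing the data. Limits of 5 and 20 points left 1 site in each line. At the limit of 5 points, C960 in nsun5-1 escaped only by a tie, at exactly 5 points from wild type in whole percent averages. Minimum levels of 30% and 50% also left 1 site. Both removed C960 alone, which was not past 10 points from wild type in either line, so they could not change the count. On the logit scale (log2 odds, offset 0.5 points) the C2268 differences from wild type were -6.25 in nsun5-1 and -2.21 in nsun5-2. With flanks of 5 and 20 bases, C1940 had 4 of 10 and 13 of 40 bases in common with C2268, against medians of 3 and 9. C2860 had 1 and 12, C916 had 4 and 9, and C960 had 3 and 9. The unknown read depth limits every small difference: those of about 1 point are at the rounding of the whole percent columns.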

Other observations

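The cytosine C2860 of nuclear 25S rRNA, unlike C2268, aligned with a cytosine in both organelle large subunit rRNAs, at position 2519 of chloroplast 23S and position 2112 of mitochondrial 26S rRNA. These windows shared 17 and 16 of 21 bases with the nuclear one. Neither organelle cytosine is among the 7 listed sites, and their levels were not analysed here. C916 and C960, the matched small subunit sites of the organelles, both aligned with a cytosine at position 1196 of nuclear 18S rRNA, with 14 of 21 bases in common, and that position is not listed as a site either.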
